A study of Zea mays with 24 samples.

Results

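The linking arrays that set cold-grown Picker roots against control-grown PR39B29 roots were examined, chosen by their array titles. They are 3 of the 24 arrays of the series, which joined root RNA of the maize varieties Fergus, Picker, PR39B29 and Codisco in 3 replicate loops. Each loop also held direct arrays of one variety (cold and control RNA together) and linking arrays of the other variety pairs. Both varieties studied here are the more chilling tolerant ones of the 4, and the labels name no allele or introduced gene for them.

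The Picker cold roots grew in the dark with 16 h at 12 °C and 8 h at 6 °C a day. The PR39B29 control roots had 16 h at 18 °C, and their cooler period at 12 °C lasted 8 h by the study's methods and 6 h by the sample labels. The sources also differ on age, which is day 1 after germination in the methods and 8 days in the labels. RNA came from the 3 cm primary root and was labelled in 2 colours for a printed oligonucleotide array of maize. Each value is a log2 ratio (M), and here a positive M means more RNA in Picker cold roots than in PR39B29 control roots. On these arrays the file header, the dye labels and the order of the title give the same direction. The 2 RNAs differ in variety and in temperature at once, so that one ratio alone cannot tell the 2 apart.

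Maize is a plant of warm origin, and its primary root is the first organ to meet cold soil. Cold slows membrane transport, respiration and protein synthesis in roots. Plants are known to answer it with water stress and abscisic acid genes, with changes in cell wall and defence proteins, and with the breakdown of proteins and reserves. Roots are not green, but their cells hold plastids with a small genome of their own, a plastid RNA polymerase and plastid ribosomes.

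The replicates were not alike. Replicate 2 had a Spearman correlation of 0.99 over 22672 genes with the direct array of PR39B29 of the same loop (control over cold), with a median absolute difference of 0.031. Its correlation with replicate 1 of its own comparison was 0.12 and with replicate 3 it was 0.17. With the PR39B29 direct arrays of replicates 1 and 3 it was 0.82 and 0.33. Which of the 2 nearly equal arrays carries the right label is not known from the files. All results therefore rest on replicates 1 and 3, with replicate 2 given apart. The library labelled replicate 2 and, in the fits of the whole loop, its near copy entered a fit only where they are said to be kept. The PR39B29 direct values of replicate 2 given below come from this near copy and carry the same doubt.

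Replicates 1 and 3 correlated at 0.35 (Spearman, 16324 genes with a value on both, genes not being independent replicates). Replicate 1 had values for 21167 of the 43393 genes and replicate 3 for 20498, and the spread was 0.74 (SD over genes) on replicate 1 and 1.83 on replicate 3. The 8 ratios around a loop, each first-named over second-named RNA, should sum to 0. The spread of that sum (scaled median absolute deviation) was 1.53 in replicate 1, 2.40 in replicate 2 and 1.40 in replicate 3, against 1.89, 2.23 and 2.53 if the arrays of each loop were unrelated. With the sign of the direct arrays turned it was 3.41, 3.37 and 4.77. In replicate 3 the linking ratio could be partly predicted from the other 7 arrays (Spearman 0.50). In replicate 1 the same correlation was 0.02, and in replicate 2 it was -0.46. Of the 4 root markers all had values on both arrays, and of 27 probes for photosystem and rubisco proteins of green tissue 4 had. M of these 4 green tissue probes ran from -2.30 to 0.32 on replicate 1 and from -1.08 to 1.65 on replicate 3. The root markers come from the study's tables of changed genes, from which all 50 products used here had values on both replicates. This contrast therefore cannot show the identity of the tissue. No probe was named for a seed storage zein.

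Across all genes, 321 had M above 1 on both replicates (1.97% of 16324) and 363 had M below -1 on both (2.22%). The sign was the same on both replicates for 63.1% of the genes, and 132 genes lay above 1 on one replicate and below -1 on the other. In limma, with the spread shared by 11 linking arrays, no gene passed an adjusted p of 0.05 (0% of 16324, smallest adjusted p = 0.0645), while 1349 genes (8.26%) had an unadjusted p below 0.05. Other settings moved this count, to 99 with the arrays scaled to one spread, to 84 in a fit of the whole loop and to 94 without loop 1, where replicate 3 stood alone. As each mean rests on 2 arrays, the values below are given array by array.

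**Figure D1:**
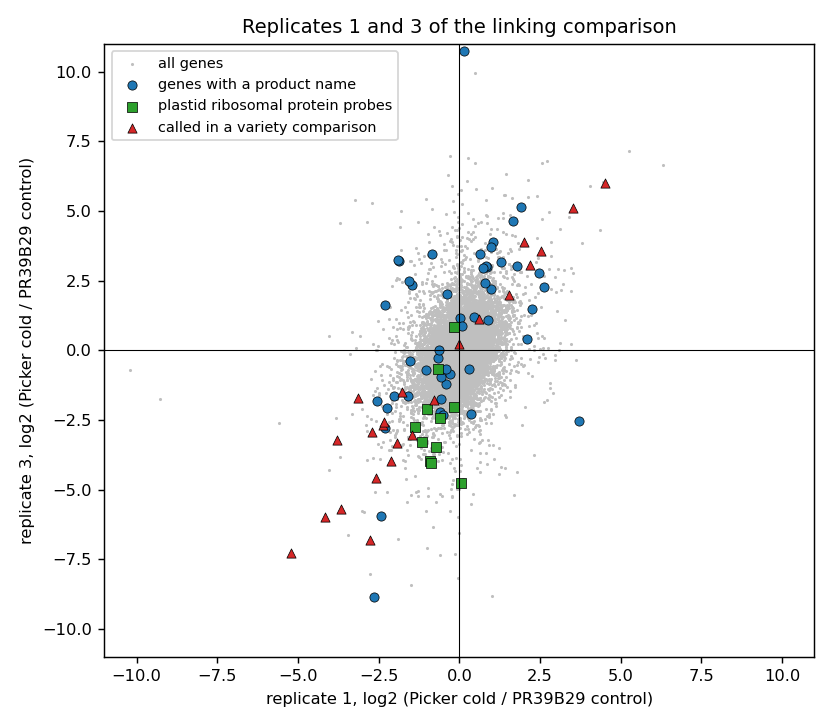
Log2 ratio of Picker cold over PR39B29 control roots on replicate 1 (horizontal) and replicate 3 (vertical), 1 grey point for each of 16302 genes inside the plotted range of -11 to 11. Blue circles are genes with a product name, green squares plastid ribosomal protein probes and red triangles the genes called in a comparison of the varieties, most of which lie far from 0 along the diagonal.

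The files name few products. For 50 probes without a plastid gene symbol the study's tables give one, if only as an unknown or hypothetical protein, and all 50 had values on both replicates. The study listed these genes because they changed between cold and control roots of Picker or PR39B29, and the linking arrays hold the same Picker cold and PR39B29 control RNA. Their direction here is therefore not independent of that choice. The same holds for their direct ratios, given below for single products. M was positive on both replicates for 21 of the 50 and negative on both for 19, where 31.4% and 31.7% of all genes did so. In all, 8 lay above 1 on both and 7 below -1 on both. An unadjusted p below 0.05 was found for 9 higher products (4.67% of all genes) and 7 lower products (3.60% of all genes), and none passed the adjusted threshold. On replicate 2, 18 of the 21 positive products were negative and 12 of the 19 negative products were positive. Replicate 2 nearly equals a PR39B29 array of control over cold RNA, so these signs also depend on how the products were chosen. The share over all genes was not counted.

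Defence products had negative ratios. All 4 probes had negative M on both replicates, with a median of the means of -1.72, against -0.0027 over all genes. The study listed all 4 as lower in cold Picker roots, and these arrays hold the same Picker cold RNA. Their shared direction here is therefore not independent of that choice. The putative chitinase MZ00027910, an enzyme class that cuts the chitin of fungal walls, had M of -2.24 on replicate 1 and -2.08 on replicate 3, and 1.79 on replicate 2. Both probes for the glucose starvation-induced protein pZSS2 gave almost the same values. MZ00037140 had -2.03 and -1.63 (mean -1.83 ± 0.58 SE, adjusted p = 0.43 in limma), and MZ00040560 had -1.59 and -1.63. Both replicates thus gave these 3 probes a ratio of about the same size. PR-1, a marker of pathogen defence, had only -0.65 and -0.26, although the direct Picker arrays gave cold over control ratios of -0.85, -5.87 and -14.30 for it.

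The pZSS2 and chitinase values can be set beside the direct arrays, which share RNA with the linking arrays. For MZ00037140 the cold over control ratio was -1.57, -1.65 and -1.04 in Picker (replicates 1, 2 and 3) and 0.22 and -0.75 in PR39B29 (replicates 2 and 3). For the chitinase it was -1.75, -1.73 and -1.10 in Picker and -1.89, -1.70 and -1.35 in PR39B29. The chitinase was thus below 0 on every direct array of both varieties. The study listed both products as lower in cold Picker roots, so their Picker signs are not independent of that choice. The direction of the direct arrays rests on the order of their titles and is likely but not settled, because their dye labels point the other way. The loop sums given above spread less in title order than with the direct arrays turned.

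Peroxidases, which oxidise phenolics and act on hydrogen peroxide in the cell wall, did not move as a group. The putative peroxidase P7X (MZ00026299) had M of -2.54 and -1.81 (mean -2.18 ± 0.57 SE, adjusted p = 0.33 in limma). Replicate 2, the near copy of a PR39B29 direct array, gave -3.42 and is not counted as agreement. On the direct arrays its cold over control ratio was -1.83, -2.39 and -0.21 in Picker and 0.20, 3.26 and -0.19 in PR39B29. MZ00004711 had 0.35 and -2.28. The peroxidase MZ00026737 had 0.03 and 1.16. The 3 probes therefore gave 3 patterns, one low on both replicates, one of mixed sign and one near 0 on replicate 1.

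Proteases had positive ratios on both replicates for all 4 probes, with a median of the means of 1.93. The aspartic proteinase MZ00043603 had 0.63 and 3.46 (mean 2.04 ± 0.92 SE, adjusted p = 0.60 in limma). The C13 endopeptidase NP1 (MZ00041334) had 0.83 and 3.04 and the legumain-like protease MZ00041333 had 0.86 and 2.99. Both belong to the cysteine proteases that process proteins in the vacuole. The putative metacaspase MZ00032919, of a family tied to cell death in plants, had 0.98 and 2.20. None exceeded 1 on replicate 1, and all exceeded 2 on replicate 3. On the direct arrays all 4 were above 0 in both varieties on every array with a value, as for the aspartic proteinase with 2.19, 3.02 and 2.22 in Picker and 1.10, 1.34 and 3.93 in PR39B29. On replicate 2 all 4 were below 0. The study listed all 4 as higher in cold PR39B29 roots. The PR39B29 direct signs and those of replicate 2 are thus not independent of that choice.

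Water stress products split between the replicates. The product similar to a water stress inducible protein, MZ00041500, had 1.91 and 5.16 (mean 3.54 ± 0.98 SE, adjusted p = 0.35 in limma), and -1.95 on replicate 2. The drought-inducible protein MZ00023411 had -0.84 and 3.44. The 2 probes for the r40g3 protein had -1.46 and 2.34 (MZ00042906) and -1.55 and 2.49 (MZ00042908), so that they matched each other within an array but changed sign between arrays. The putative ASR2 (MZ00041306), of a family induced by abscisic acid, stress and ripening, had 2.09 and 0.40. One of the 5 probes was thus above 1 on both replicates and 3 had opposite signs.

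Among transport products the aquaporin ZmNIP2-1 (MZ00016581), of the family that carries silicic acid in grass roots, had 1.04 and 3.90 (mean 2.47 ± 0.97 SE, adjusted p = 0.53 in limma). Its cold over control ratio was 2.67, 2.66 and 2.25 in Picker and 1.36, 1.99 and 3.22 in PR39B29. The putative MtN21, a membrane protein, had -0.60 and -2.21 and the urea transporter DUR3 -0.42 and -1.20. Transport products were thus high for 1 probe and low for the other 2.

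Of the regulators, the putative NAC1 transcription factor MZ00022590 had 1.30 and 3.18 (mean 2.24 ± 0.91 SE, adjusted p = 0.54 in limma). The putative syntaxin SYP111 (MZ00019060), known in Arabidopsis for membrane fusion at cell division, had 0.14 on replicate 1 and 10.74 on replicate 3. Its 6 direct ratios lay between -0.26 and 0.45. The study listed it as higher in cold PR39B29 roots, a change that these direct ratios hardly show. The mean for this probe (5.44 ± 1.85 SE, adjusted p = 0.48 in limma) was set by 1 array. The BRAP2-like protein and the plastid RelA homologue had opposite signs on the 2 replicates.

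The putative small heat shock protein hsp22 (MZ00029223), a chaperone that binds unfolding proteins, had the lowest mean of the products after snRNP polypeptide F and an unknown rice product. M was -2.44 and -5.96 (mean -4.20 ± 1.15 SE, adjusted p = 0.34 in limma), against 2.40 on replicate 2. Its cold over control ratio was negative on all direct arrays, with -4.21, -2.00 and -2.41 in Picker and -1.80, -2.29 and -6.10 in PR39B29. The study listed hsp22 as lower in cold PR39B29 roots, so its sign there is not independent of that choice. The putative snRNP polypeptide F (MZ00014087), a core protein of the spliceosome, had -2.64 and -8.84 (mean -5.74 ± 1.18 SE, adjusted p = 0.28 in limma). Its 5 direct ratios lay between -0.51 and 0.12. The study listed it as lower in cold Picker roots, a change that these direct ratios hardly show. An unknown rice product, MZ00043117, had -0.36 and -16.59 and rests on replicate 3 alone. The study listed it too as lower in cold Picker roots, where its direct ratios were -1.17, 0.01 and 0.94.

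In metabolism, PEP carboxykinase (MZ00013532), which turns oxaloacetate into phosphoenolpyruvate when reserves are used for sugar, had 1.66 and 4.65. Its cold over control ratios were above 1.8 on every direct array of both varieties (lowest 1.83). The study listed it as higher in cold PR39B29 roots, so its sign there is not independent of that choice. Arogenate dehydrogenase (MZ00029584), an enzyme of tyrosine synthesis, had 0.72 and 2.95. Farnesyl pyrophosphate synthetase (MZ00014008), of isoprenoid synthesis, had -0.56 and -1.75. The lignin enzyme cinnamoyl CoA reductase (MZ00015899) had 0.45 and 1.20. The O-methyltransferase ZRP4 (MZ00017851) had 3.70 on replicate 1 and -2.53 on replicate 3, and the ribulose bisphosphate carboxylase product MZ00005992 had -2.30 and 1.65. Of the 6 metabolic products one exceeded 1 on both replicates and the last 2 changed sign beyond 1.

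Root products did not share a direction. RCc3 (MZ00015009), named for its root-specific expression in rice, had 2.61 and 2.28 (mean 2.44 ± 0.96 SE, adjusted p = 0.53 in limma), and -2.67 on replicate 2. It was above 2 on all 3 Picker direct arrays (2.64, 4.13 and 2.02), against 2.11, 2.52 and 0.58 in PR39B29. The probable lipid transfer protein MZ00026029 had -1.53 and -0.37, and root cap protein 2 had -0.63 and -0.0032. RCc3 thus had about the same size on both replicates and was the only one of the 3 above 0.

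Of 14 other and unknown products 6 were positive and 6 negative on both replicates. The hypothetical protein MZ00022876 had 2.48 and 2.77 (mean 2.62 ± 0.91 SE, adjusted p = 0.47 in limma), and the unknown protein MZ00041708 had 1.79 and 3.02. Their replicate 2 values were -1.74 and -0.88. The hypothetical protein MZ00040530 lay on the other side, with -2.31 and -2.78 (adjusted p = 0.35 in limma). These unknown products thus had large ratios of either sign. As MZ00022876 and MZ00041708 have no known function, the study's PCR primers are shown to identify them, with those for hsp22 and pZSS2, the lowest named products that the study also measured by PCR. All are written 5′ to 3′ in lower case, 20 bases each, with no base marked.
MZ00022876 forward: ggaaggtgtgttctgcgttt
MZ00022876 reverse: tatgaagctgactggcgttg
MZ00041708 forward: ttgctgctcttcaccttcct
MZ00041708 reverse: acaacaatggcttccctgaa
MZ00029223 (hsp22) forward: cgaagatcaaggacgaggag
MZ00029223 (hsp22) reverse: acgactgctctgcaacagaa
MZ00037140 (pZSS2) forward: aagtaaggccacgcgtttta
MZ00037140 (pZSS2) reverse: cctggactacgagacggtgt

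**Figure D2:**
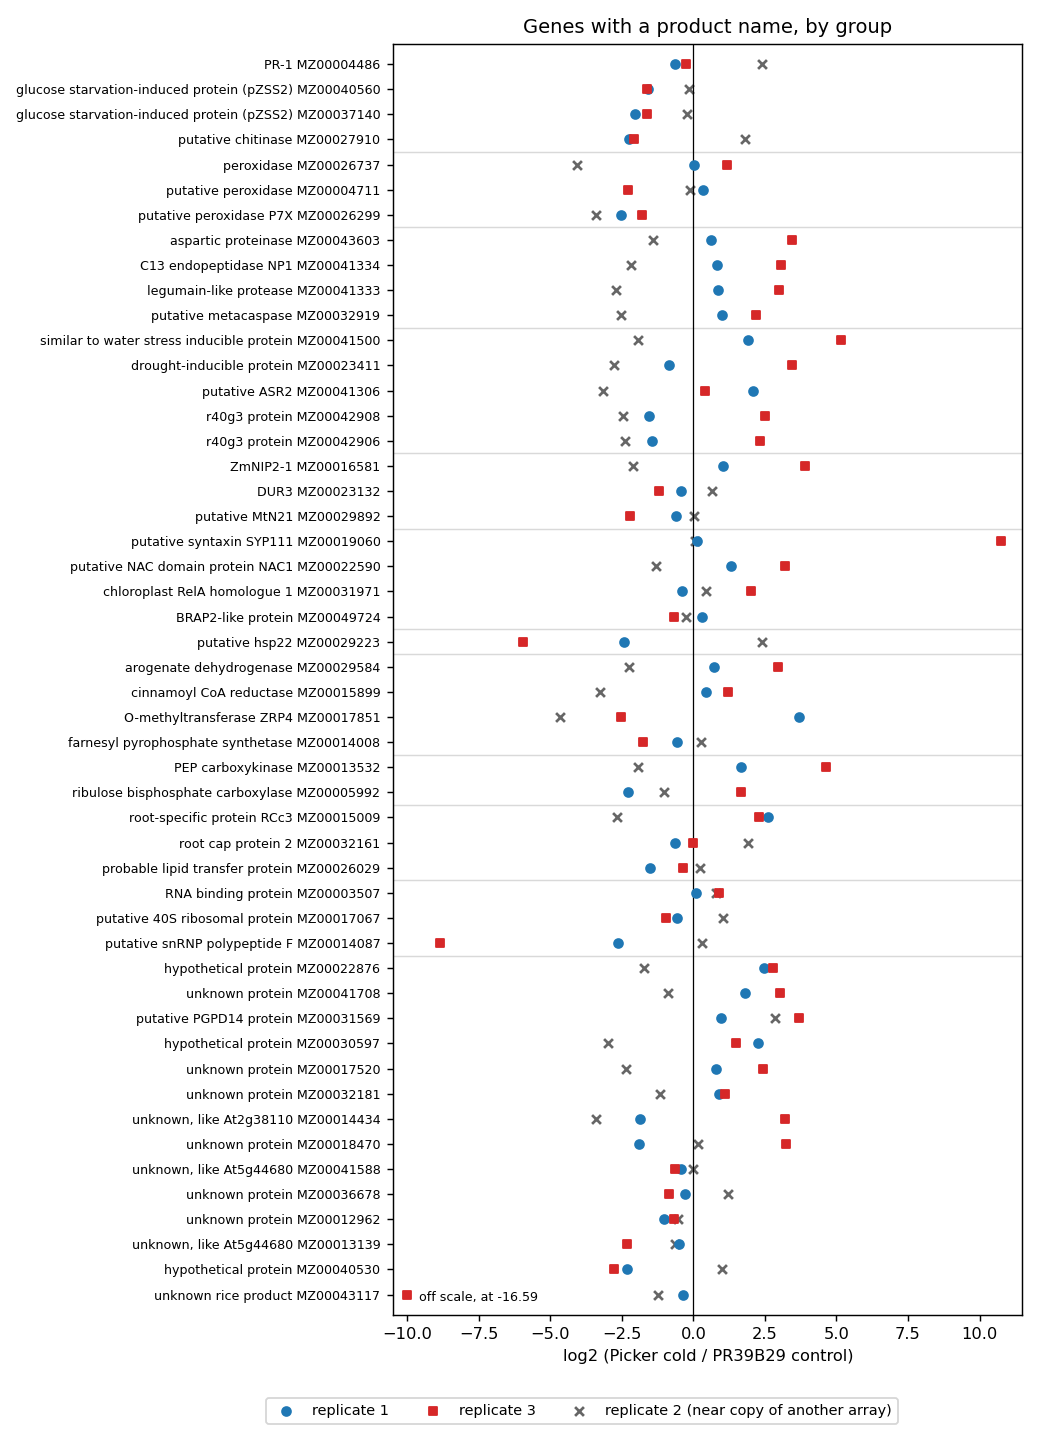
Log2 ratio of Picker cold over PR39B29 control roots for 50 genes with a product name, grouped by role between grey lines, with replicate 1 as blue circles, replicate 3 as red squares and replicate 2, the near copy of another array, as grey crosses. Replicate 3 lies farther from 0 than replicate 1 for the proteases and for hsp22, and one point at -16.59 is marked as off the scale.

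Of the 50 products 10 had opposite signs on replicates 1 and 3, and 6 of them lay beyond 1 in both directions. These were ZRP4, both r40g3 probes, the ribulose bisphosphate carboxylase product, MZ00014434 (-1.87 and 3.21) and MZ00018470 (-1.91 and 3.25), named here for their values. No average is given for them.

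Plastid genes were measured by probes that carry the gene symbol. Of 66 such probes, 65 had their symbol among plastid genes of the RefSeq table (assembly Zm-B73-REFERENCE-NAM-5.0), and 17 had values on both replicates, most of them for ribosomal proteins. Such probes can also read near-identical plastid copies in other genomes of the cell, which the array does not separate. Of the 24 ribosomal protein probes examined, 11 had values on both replicates and 12 had none on any of the 3 arrays. M was negative on both replicates for 9 of the 11, where 31.7% of all genes were so, and an unadjusted p below 0.05 for lower M was found for 7 of the 11, where 3.60% of all genes were so. None passed the adjusted threshold. The median of the means was -2.06. The study listed rpl16 (MZ00034859) and an rpl2 probe (MZ00040527) as lower in cold Picker roots. Both are in these counts, and their direction is not independent of that choice. Plastid genes are often transcribed together, so that neighbouring probes are not independent.

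Of these genes 8 lie close together in the plastid gene order, from rpl36 to rpl23. Of 10 probes for them 9 had values on both replicates, and 8 of the 9 were negative on both. M ran from -1.38 to 0.06 on replicate 1 and from -4.78 to -0.67 on replicate 3. The large subunit protein gene rpl36 had -0.87 and -4.06 (mean -2.46 ± 0.68 SE, adjusted p = 0.35 in limma), and rpl16 had -0.91 and -3.97 (mean -2.44 ± 0.92 SE, adjusted p = 0.52 in limma). The small subunit gene rps19 had -1.38 and -2.74. The exception was one rpl2 probe (MZ00034860) with 0.06 and -4.78, while the other rpl2 probe (MZ00040527) had -1.14 and -3.28. Outside this stretch, rps7 had -0.61 and -2.42 and rps15 had -0.17 and 0.83. The ratio of every probe of the stretch was larger in size on replicate 3, as was the spread of that array.

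**Figure D3:**
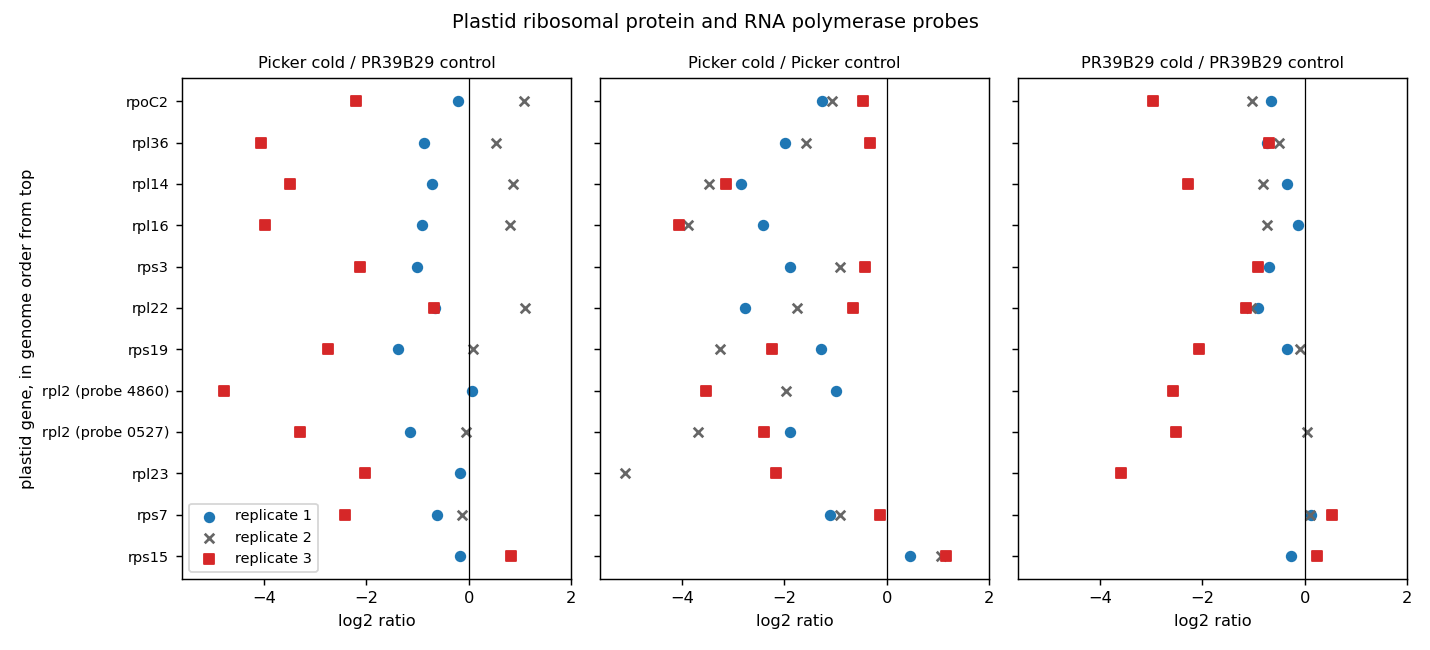
Log2 ratios of plastid ribosomal protein and RNA polymerase probes with values on both replicates 1 and 3 of the linking comparison, in plastid gene order from top, for Picker cold over PR39B29 control (left), Picker cold over Picker control (middle) and PR39B29 cold over PR39B29 control (right), with a symbol for each replicate. In the left panel replicates 1 and 3 lie below 0 for all probes but rps15 and 1 rpl2 probe, while replicate 2 lies between -0.12 and 1.11.

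Of the ribosomal protein probes, 9 were negative on both linking replicates. On the direct arrays all 9 were below 0 on every Picker array with a value, and 7 of them on every PR39B29 array with a value. The 9 were picked on linking arrays that hold the same Picker cold and PR39B29 control RNA. These counts are therefore not independent of the linking values, and the share over all genes was not counted. For rpl14 the cold over control ratio was -2.85, -3.46 and -3.15 in Picker and -0.35, -0.83 and -2.27 in PR39B29. For rpl16 it was -2.41, -3.88 and -4.07 in Picker and -0.14 and -0.74 in PR39B29 (replicates 1 and 2). The study listed rpl16 and an rpl2 probe from the Picker arrays, so their sign there is not independent of that choice. Set at the same temperature in the fit of the whole loop, rpl14 gave 0.12 ± 1.00 (SE) for Picker control over PR39B29 control and -1.91 ± 1.06 for Picker cold over PR39B29 cold, neither past the threshold (adjusted p = 1.00 and 0.64 in limma). The share of the temperature and of the variety in these ratios was not resolved at this precision.

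The remaining plastid genes gave few values. The RNA polymerase subunit rpoC2 had -0.21 and -2.19 (mean -1.20 ± 0.50 SE, adjusted p = 0.55 in limma), and ndhJ of the plastid NADH dehydrogenase had -0.78 and -3.73 (mean -2.26 ± 0.80 SE, adjusted p = 0.48 in limma). Of 24 photosystem probes 3 had values on both replicates. The photosystem I gene psaB had 0.07 and 1.22, and the photosystem II genes psbM and psbA had -0.75 and -0.46, and 0.32 and -1.08. The 3 photosystem probes thus had mixed signs. The ATP synthase gene atpH had 1.30 and -0.96.

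The comparison was next set against the other 3 linking comparisons (Codisco cold over Fergus control, Fergus cold over Picker control, PR39B29 cold over Codisco control), which also put cold over control RNA. In limma 11 of 14448 genes differed at an adjusted p of 0.05 (0.0761%), 3 higher and 8 lower in Picker cold over PR39B29 control, and 1186 genes had an unadjusted p below 0.05. None of the 11 has a product or a gene symbol in the files. MZ00040501 had M of 3.53 and 5.12, against -1.11 to 0.70 on the 8 other linking arrays with a value (difference 4.68 ± 0.62 SE, adjusted p = 0.031 in limma). MZ00039476 had 2.52 and 3.56, against -1.89 to 0.05 on the other 9 linking arrays (difference 4.05 ± 0.50 SE, adjusted p = 0.019 in limma).

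On the lower side, MZ00016121 had M of -5.23 and -7.28, against -3.13 to 5.92 on the other 9 linking arrays (difference -7.62 ± 0.90 SE, adjusted p = 0.019 in limma). MZ00004559 had -4.18 and -5.99, against 0.03 to 2.89 (difference -6.28 ± 0.69 SE, adjusted p = 0.019 in limma). The values of these 4 genes in the Picker cold over PR39B29 control comparison lay outside those of all other linking arrays. The genes were named for this same difference, so this only describes them. Picker control RNA and PR39B29 cold RNA of 2 of the other comparisons come from the same varieties, so that a variety difference also enters those ratios with the opposite sign. With the library labelled replicate 2 kept, no gene was called, and without loop 2 of all comparisons none was. Without loop 1 or loop 3 the comparison had 1 array left, and nearly all genes then called differed from those called with all loops.

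**Figure D4:**
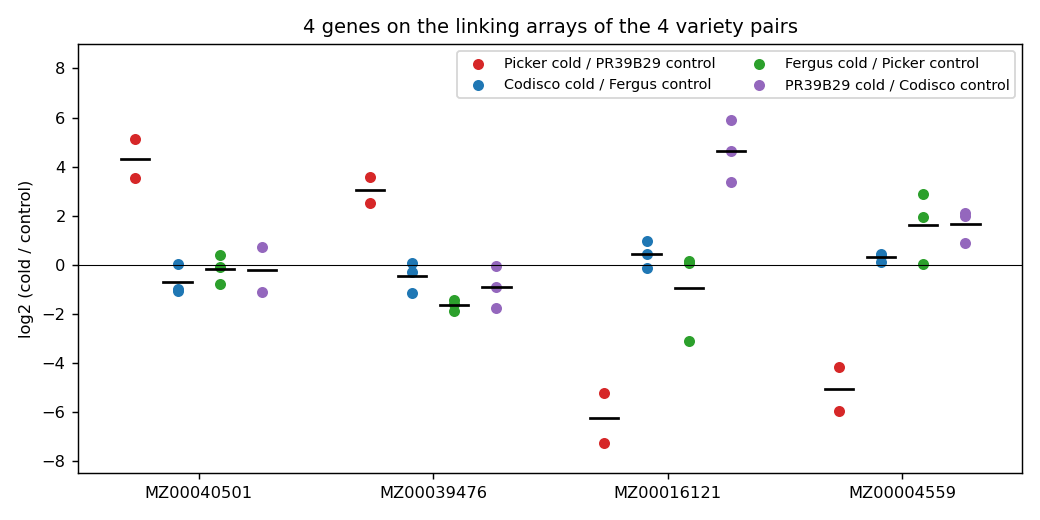
Log2 ratio of cold over control RNA for 4 genes on the linking arrays, with Picker cold over PR39B29 control (replicates 1 and 3, red) to the left of the other variety pairs (up to 3 replicates each) and a bar at each mean. For each gene the 2 red points lie apart from all points of the other pairs, the genes having been chosen by this difference.

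The fit of the whole loop in title order, without the 2 nearly equal arrays, gave the varieties at the same temperature. At the control temperature 13 of 13638 genes were called between Picker and PR39B29 (0.0953%), 4 higher and 9 lower in Picker, with 510 genes at an unadjusted p below 0.05. At the cold temperature 5 of 13638 were called (0.0367%), 2 higher and 3 lower, with 1102 at an unadjusted p below 0.05. In all, 3 genes were called at both temperatures, and 2 of them also against the other linking comparisons. In all, 23 genes were called in one or more of these 3 comparisons, and none has a product or symbol. Of the 23, 8 had a positive and 15 a negative mean of the linking replicates, and 20 lay beyond 1 in one direction on both. The counts rest on few arrays, and most genes called at control without loop 1 were not among the 13. Without loop 3 no gene was called at either temperature, without loop 2 it was 1 at control and 3 in the cold, and without loop 1 it was 25 and 2. They also rest on the direction of the direct arrays. With these arrays turned, 5 genes were called at control and 0 in the cold.

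MZ00004559 had the lowest adjusted p. Its linking ratios (-4.18 and -5.99) contrast with direct ratios of 0.78, -0.75 and 0.06 in Picker and -0.51 and 2.19 in PR39B29. The fit gave -5.79 ± 0.70 (SE) for Picker cold over PR39B29 cold (adjusted p = 0.0014 in limma) and -5.01 ± 0.66 for Picker control over PR39B29 control (adjusted p = 0.0057). MZ00023612 had linking ratios of -3.78 and -3.22 and all 6 direct ratios between -0.62 and 0.09. It was called at both temperatures, at -3.13 ± 0.49 in the cold (adjusted p = 0.018 in limma) and -3.03 ± 0.46 at control (adjusted p = 0.020 in limma). The cold call of MZ00023612 was lost with only the 40% of genes of largest variance kept (adjusted p = 0.073 in limma) and with both nearly equal arrays kept (adjusted p = 0.11). With arrays of the 2 varieties alone it was lost too (adjusted p = 0.19), as were both calls of MZ00004559 (adjusted p = 0.35 in the cold and 0.30 at control). With the direct arrays turned the cold ratios were -3.37 for MZ00004559 and -2.62 for MZ00023612, neither called (adjusted p = 0.24 and 0.22 in limma).

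At the control temperature MZ00014094 was also low in Picker, at -5.11 ± 0.81 (SE, adjusted p = 0.023 in limma), with 6 direct ratios between -0.60 and 0.60. MZ00013381 was higher, at 5.29 ± 0.96 (adjusted p = 0.038 in limma), with linking ratios of 4.52 and 6.02. Both calls were lost with both nearly equal arrays kept (adjusted p = 0.69 for MZ00014094 and 0.98 for MZ00013381 in limma). They were also lost with the 2 varieties alone (adjusted p = 0.17 each) and with the direct arrays turned (0.062 and 0.90). The call of MZ00013381 was lost too with a dye term (adjusted p = 0.054) and with the replicate number as a block (adjusted p = 0.084). MZ00014019 was another kind of gene. Its linking ratios were -0.03 and 0.24, but it lay at 3.89 ± 0.64 (adjusted p = 0.026 in limma) at the control temperature and at 0.31 ± 0.64 in the cold (adjusted p = 0.89), with Picker cold over control ratios of -5.52 and -2.18 and PR39B29 ratios of -0.31, -0.33 and -0.24. Its control value comes from the fit of the whole loop, which holds direct and linking arrays. On the Fergus cold over Picker control linking arrays the gene had -4.46, -4.33 and -4.25. With the direct arrays turned the control value was -1.69 (adjusted p = 0.78 in limma), so that its direction in the fit depended on the title order. With arrays of the 2 varieties alone its control call was lost (adjusted p = 0.55 in limma). The difference between the temperatures was not tested in itself.

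At the cold temperature the 2 higher genes were MZ00027341 and MZ00016834. MZ00027341 had linking ratios of 2.20 and 3.08 and lay at 3.57 ± 0.56 (SE, adjusted p = 0.018 in limma). MZ00016834 had 1.53 and 1.98 and lay at 2.47 ± 0.42 (adjusted p = 0.039 in limma). Both had Picker direct ratios within 1 of 0, and MZ00016834 was the smallest of the called differences named here. The call of MZ00027341 was lost with only the 40% of genes of largest variance kept (adjusted p = 0.064 in limma). That of MZ00016834 was lost with a dye term (adjusted p = 0.069) and with both nearly equal arrays kept (adjusted p = 0.061). Both were lost with the replicate number as a block (adjusted p = 0.078 each). They were also lost with the 2 varieties alone (adjusted p = 0.20 and 0.39) and the direct arrays turned (0.30 and 0.365).

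**Figure D5:**
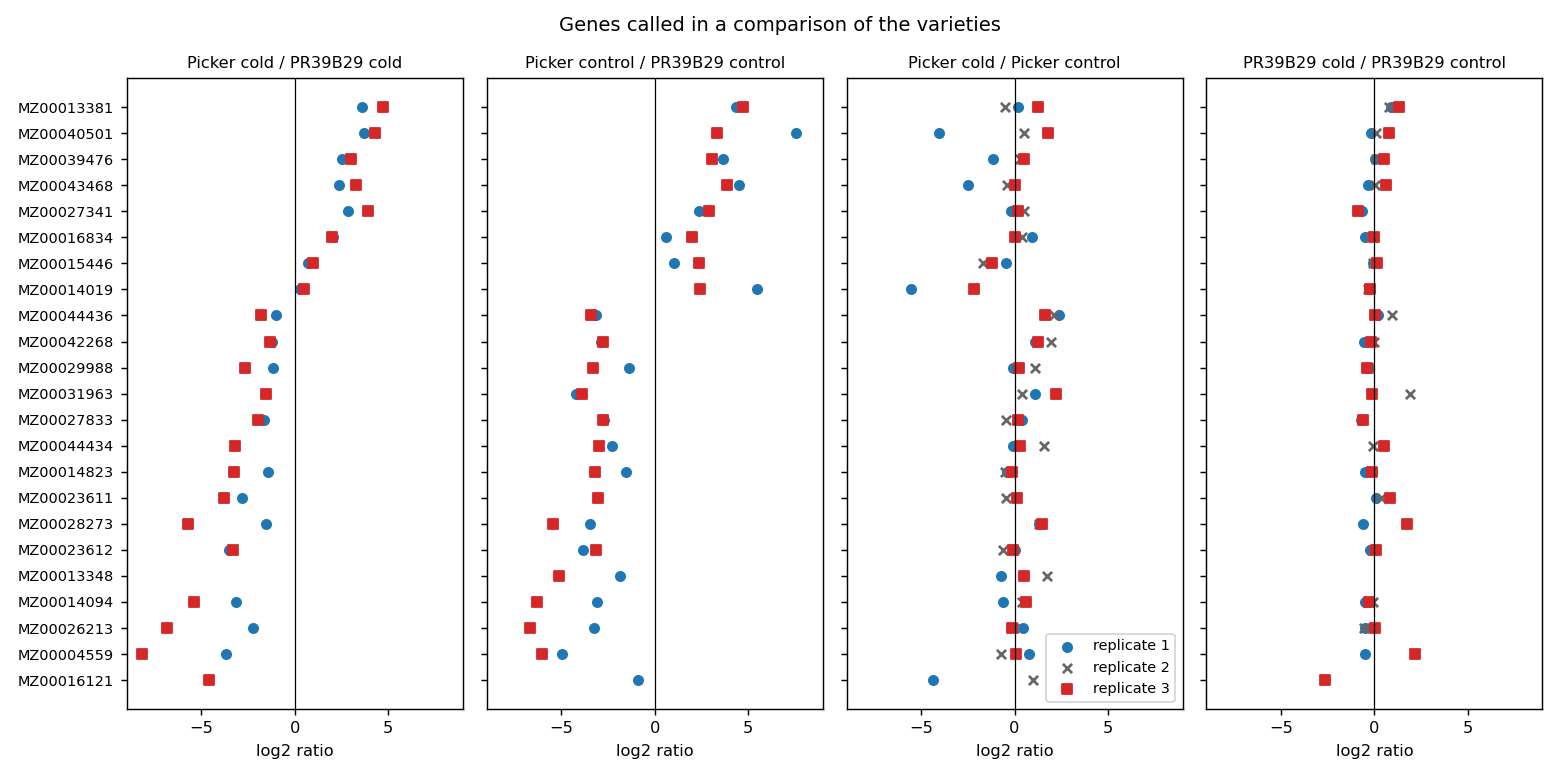
The 23 genes called in at least 1 of the 3 comparisons, ordered by their mean linking ratio, with log2 ratios of Picker cold over PR39B29 cold and Picker control over PR39B29 control (replicates 1 and 3, sums of 2 arrays) and the cold over control ratios of Picker and of PR39B29 (3 replicates). PR39B29 ratios lie within 1 of 0 on every array with a value for 17 genes, and most of all genes lie there on each PR39B29 array. The ratios between the varieties spread from -8.18 to 7.56.

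Of the 23 called genes, the PR39B29 cold over control ratio lay within 1 of 0 on every array with a value for 17, the Picker ratio for 9 and both for 8. One of the 23, MZ00013348, had no PR39B29 direct value. Replicate 2 of the comparison had a value for 19 of the genes and lay within 1 of 0 for 18 of them. Over all genes the scaled median absolute deviation was 0.531, 0.645 and 0.876 on the PR39B29 direct arrays. It was 0.876, 0.817 and 0.659 on the Picker direct arrays and 0.679 on replicate 2 of the comparison. Most of all genes thus lay within 1 of 0 on each of these arrays, and their share on every array was not counted. The ratio between the varieties, taken for each loop as the sum of a linking and a direct array, had one sign in both loops for all 21 genes with 2 values at the control temperature and all 19 at the cold temperature. These sums hold the same linking values that the calls rest on, so this is a description of the called genes. No called gene belonged to the product or plastid groups above.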

How the data were processed

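A service laboratory hybridised and scanned the slides (GenePix). According to the methods and labels, CARMAweb, a front end to limma whose release is not given in the sources used here, was then used by the authors for minimum-method background correction, print-tip loess within arrays and scaling between them, without spots marked as bad. The deposited values are the log2 ratio of the 2 channels (M) at each spot. A second table gave the ID of each of 46128 spots, all matched by position. It also holds 96 value columns, each of one slide, that could not be tied to a sample by their names and were not used. On average 41.8% of gene spots lacked a value. The height of spots over background was not given in these values, and the number of arrays limits the precision.

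Spots of a probe were averaged. In R 4.3.3, with data.table (version 1.17.8) to read the files, limma (version 3.58.1) was fitted to 11 linking arrays with a mean for each variety pair, and to 22 arrays of the loop with 1 parameter for each of 8 RNA groups, in title order. Benjamini-Hochberg adjustment ran over all genes tested, with a threshold of 0.05. The replicates are called biological in the study's methods, with nothing in the labels on separate cultures, so that p-values measure the spread between these samples. The fits were tested on simulated data. Cold over control ratios of direct arrays are deposited values with the sign turned. Products came from the study's tables and symbols from the array file. One plastid probe is not reported here and was left out of the lists.

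Named were genes of the lists that passed a test or had the 2 largest absolute means of their list, called genes with a product or symbol (there were none), and the 2 largest without one in each direction. Other list members are named beside them to complete a group, and those were chosen after their values were seen. The members and lists were chosen with earlier results of these data known. Tried alternatives were a variance filter keeping 40% of genes, scaling, centring, array weights, a limit of 10 on the log2 ratio, robust variance, a dye term, other sets of arrays, the replicate number as a block and leaving out each loop. Turning the sign of the direct arrays was added after the data were seen.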

Additional observations from a re-analysis of the deposited data

Results flagged for a closer look

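Picker cold over PR39B29 control differed from the mean of the other 3 linking comparisons, as a test of the difference itself in limma, for 11 of 14448 genes. The differences were 4.68 for MZ00040501 and 4.05 for MZ00039476, both higher in Picker cold over PR39B29 control, and -7.62 for MZ00016121 and -6.28 for MZ00004559, both lower. In each of these 4 genes both replicates of the comparison lay outside all values of the other linking arrays, which is part of how they were chosen. The adjusted p-values were 0.031 for MZ00040501 and 0.019 for each of the other 3 genes.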

How the results depend on the processing

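In order, counts are for Picker cold over PR39B29 control (0 called), the same minus the other linking comparisons (11), Picker control over PR39B29 control (13) and Picker cold over PR39B29 cold (5). Scaling the arrays to one spread gave 99, 84, 23 and 10, and array weights 11, 60, 30 and 17. The variance filter gave 2 for the first, 6 for the third and 1 for the last. Leaving out values beyond 10 gave 6 for the first, and the whole loop 84. Keeping the library labelled replicate 2 gave 0 for the second. With the PR39B29 direct array of replicate 2 kept, the last was 12, and with both nearly equal arrays kept the third and the last were 3 each. Arrays of the 2 varieties alone gave 1, a gene not among the 13, and 0, and a dye term gave 7 and 3. Leaving out one loop at a time gave 0 to 94, 0 to 25, 0 to 25 and 0 to 3, the lone linking array being assumed to vary like the others.

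With the replicate number as a block, 0 genes were called for the second comparison, 2 for the third and 1 for the last, and the first stayed at 0. The cold call of MZ00023612 was then lost (adjusted p = 0.078 in limma), as was the control call of MZ00014019 (adjusted p = 0.057). The labels do not say that the numbers pair the samples, and deviations of same-numbered linking arrays correlated from -0.06 to 0.57 (9 of 15 pairs above 0.1), with 5 of 11 arrays closest to their own number.

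Of settings chosen after seeing the data, turning the direct arrays gave 5 called genes for the third comparison and 0 for the last, and MZ00014019 then stood at -1.69 at control. Scaling gave 540 genes above 1 on both arrays, and requiring replicate 2 as well gave 44 above 1 and 70 below -1. In 415 refits of named genes that value was the only change of direction, with 61 calls lost and 22 gained. The cause of these changes was not tested. Missing values and 2 usable replicates limit all counts.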
